A study of Canis lupus familiaris with 8 samples.

Results

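The comparison was made between MDCK I cells transfected with Nfat5-1-siRNA and then held at 500 mOsm and cells given a control siRNA at the same osmolality. Its libraries were chosen by their group label and were 4 of the 8 libraries of the series, 2 labelled Neg-siRNA (500 mOsm) and 2 labelled Nfat5-1-siRNA (500 mOsm). MDCK I is an epithelial line of canine kidney. Both groups received 100 nM siRNA by reverse transfection and spent the last 24 h in growth medium to which 200 mOsm of raffinose had been added. Neg-siRNA was an siRNA against Slc22a6, which the study's methods give as a gene that MDCK I cells do not express, and Nfat5-1-siRNA was 1 of the constructs against Nfat5. The cells of replicate 1 were at passage 15 and those of replicate 2 at passage 17 in each group, so both libraries of a group came from the same cell line and p-values measure only the spread between these passages. The other 4 libraries were Neg-siRNA at 300 mOsm, the growth medium without raffinose, and Nfat5-2-siRNA at 500 mOsm, 2 each. They entered the model fit and are given for reference.

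NFAT5, also called TonEBP, is a transcription factor of the Rel family that acts when the medium around a cell becomes hypertonic. Its known target genes encode carriers and enzymes that load the cell with small uncharged organic osmolytes, so that cell volume and ionic strength can be restored without a high salt concentration inside the cell. In the kidney this programme is best known from the medulla, where the interstitium is hypertonic. An siRNA acts after transcription by directing the cleavage of a matching mRNA or by blocking its translation, and the level of the target mRNA is therefore the first value to be shown.

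The control libraries, Neg-siRNA (500 mOsm), held 41742578 and 43971253 counts in all, and the Nfat5-1-siRNA libraries 46043788 and 45111348. Levels are given as CPM, the count of a gene scaled to a fixed library total after TMM normalization, always for replicate 1 and then for replicate 2. Where a gene is given with only 2 pairs of levels, the first pair is that of the control libraries and the second that of the Nfat5-1-siRNA libraries. Of the genes in the count table, 19835 reached 5 reads in all over the 8 libraries. They were tested with edgeR's quasi-likelihood test in 1 fit of all libraries, and a gene passed the threshold, or was called, where its p-value adjusted by Benjamini-Yekutieli lay under 0.05. The count table gives Ensembl identifiers only. Symbols were available for 860 of the tested genes, all of them from the list of genes that the study itself had selected on these libraries as changed by osmolality and by both Nfat5-siRNAs. The study describes this list as raised by hyperosmolality and lowered by both constructs, whereas the list as held here has genes of both directions. A count over genes with symbols is thus not independent evidence of a direction. No set of markers that define renal epithelial or other cell types was checked, since only genes on the study's list could be paired. Single genes known from parts of the kidney, such as AQP1 and TFCP2L1, are on that list and are given below. In bulk RNA, fewer cells of a kind and less RNA per cell cannot be told apart.

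The gene taken as Nfat5 was not lower in the Nfat5-1-siRNA libraries. It is ENSCAFG00000020254 at chr5:80003598-80115099 of CanFam3.1, on the reverse strand with 13 exons, and it was identified by its place next to NQO1, as in the RefSeq gene order. Its level was 85.9 and 78.5 CPM in the control libraries and 104 and 88.1 CPM in the Nfat5-1-siRNA libraries, so each Nfat5-1-siRNA library lay above both control libraries. Such a separation of the groups, in either direction, held for 60.0% of the genes tested. The log2 fold change of the Nfat5 gene was 0.22 (SE 0.14) with an adjusted p of 1, and it ranged from 0.10 to 0.35 when 1 library was left out. At 300 mOsm the gene had 21.8 and 23.6 CPM, and with Nfat5-2-siRNA it had 72.2 and 73.5 CPM. The mRNA of the target gene thus does not check the siRNA labels, and the groups below are the libraries as labelled. The files hold RNA only, so Nfat5 protein was not analysed here. The western blots of the study were not analysed here, and the target of Neg-siRNA could not be paired with an identifier.

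**Figure D1:**
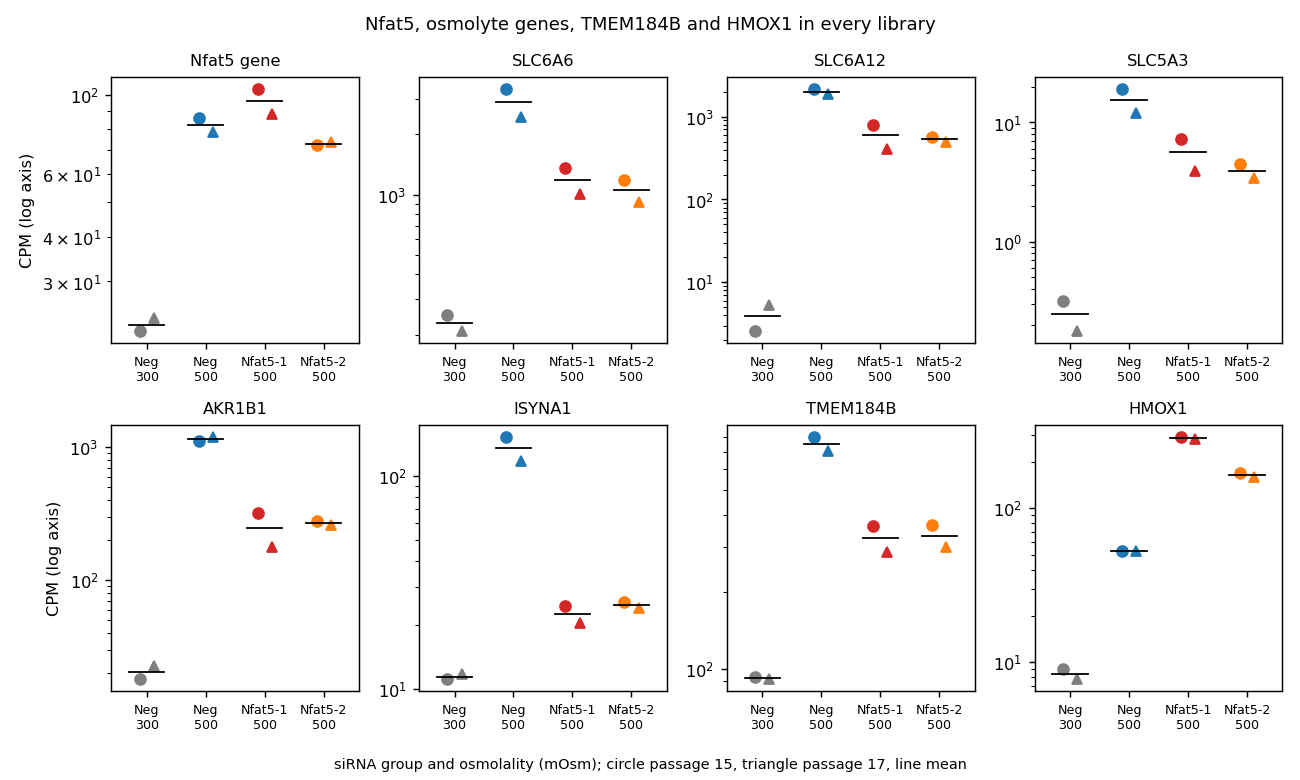
CPM (log axis) of the Nfat5 gene, 5 osmolyte genes, TMEM184B and HMOX1 in the 8 libraries, by siRNA group and osmolality in mOsm, with a circle for passage 15, a triangle for passage 17 and a line at the group mean. For the osmolyte genes and TMEM184B both Nfat5-1-siRNA libraries lie below both Neg-siRNA (500 mOsm) libraries, whereas those of HMOX1, at 289.9 and 284 CPM, and of the Nfat5 gene lie above them.

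In all, 1572 genes differed between Nfat5-1-siRNA (500 mOsm) and Neg-siRNA (500 mOsm), which is 7.93% of the genes tested. Of these, 674 were higher (3.4%) and 898 were lower (4.53%) with Nfat5-1-siRNA. The difference was at least 2-fold for 413 of the higher and 637 of the lower genes, and at least 4-fold for 78 and 196. The median log2 fold change, without its sign, was 1.11 over the higher genes, 1.27 over the lower ones and 0.53 over all 19835 tested genes. With its sign, the median over the 12424 genes whose mean reached 1 CPM was -0.03. With the passage as a block, 1906 genes were higher and 2358 lower, or 21.5% of the genes tested. The higher genes were longer than the lower ones, with a median of 3441 exonic bases against 2250.5, and all tested genes had a median of 1824. The part of length in the result was not tested.

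The TMM factors were 0.883 and 0.908 for the control libraries and 1.01 and 1.04 for the Nfat5-1-siRNA libraries. When the library totals alone were used for scaling, the median log2 fold change of the genes with at least 1 CPM moved up by 0.20, 1313 genes were higher and 578 were lower. The higher genes then made up 69.4% of the calls, against 42.9% with TMM over all 8 libraries. With TMM and only the 4 libraries compared, 840 genes were higher and 826 lower, and the higher genes made up 50.4%. The balance between rises and falls thus depends on the scaling and on the libraries fitted. Leaving out 1 library reduced the number of called genes to 694 without Neg-siRNA (500 mOsm) replicate 1, 421 without its replicate 2, 547 without Nfat5-1-siRNA replicate 1 and 166 without Nfat5-1-siRNA replicate 2. The left-out fits treat the single library of a group as varying like the other groups.

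**Figure D2:**
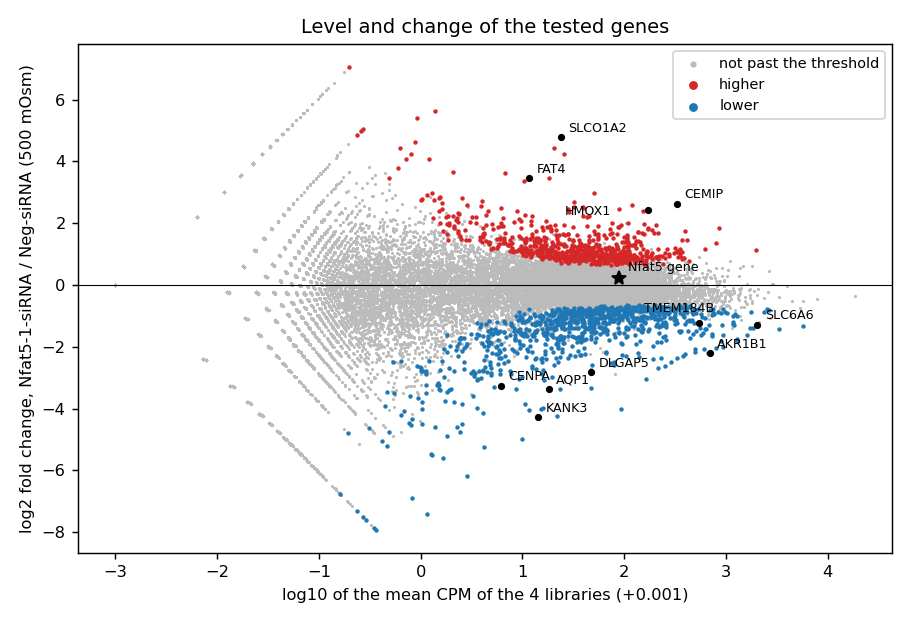
Mean CPM of the 4 libraries (log10 axis, 0.001 added) and log2 fold change of Nfat5-1-siRNA over Neg-siRNA (500 mOsm) for the 19835 tested genes, with the 674 higher genes in red, the 898 lower genes in blue and the others in grey. The Nfat5 gene (star) lies among the grey points at 0.22, and SLCO1A2 at 4.79 and KANK3 at -4.27 are among the named genes farthest from 0.

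The ratio of Nfat5-1-siRNA to Neg-siRNA could be formed within each passage from libraries that are not shared. Across the 12424 genes with at least 1 CPM, the log2 ratio of passage 15 and that of passage 17 had a Pearson's r of 0.852, given as a description, since genes are not independent replicates. All 1572 called genes had the same direction in both passages, as had 14340 of the 19835 tested genes, and a gene called from these same libraries is bound to do so in most cases. The SD of the log2 ratio over these 12424 genes was 0.696 in passage 15 and 0.830 in passage 17. Of the called genes, 535 of the 674 higher and 718 of the 898 lower ones had the larger ratio in passage 17, or 79.4% and 80.0%, while 64.1% of all 12424 genes did. The median log2 ratio of the lower genes was -1.16 in passage 15 and -1.39 in passage 17, and that of the higher genes was 1.01 and 1.22. Across the tested genes, the log2 CPM of the replicates had an r of 0.987 for Neg-siRNA (500 mOsm) and 0.990 for Nfat5-1-siRNA (500 mOsm), and libraries of different groups had an r from 0.971 to 0.979.

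**Figure D3:**
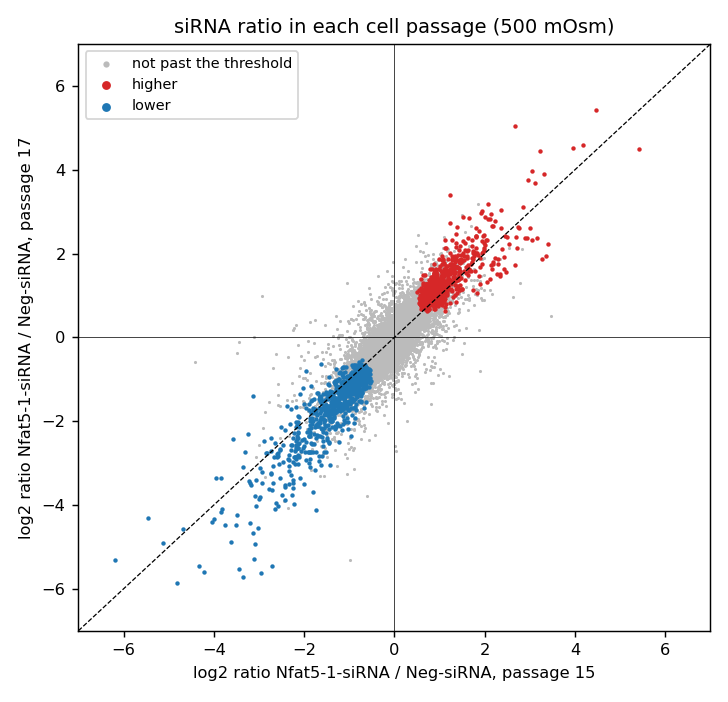
Log2 ratio of Nfat5-1-siRNA over Neg-siRNA (500 mOsm) in passage 15 (x axis) and in passage 17 (y axis), 1 point per gene whose mean reached 1 CPM in the 4 libraries, with the dashed line at equal ratios. The higher (red) and lower (blue) genes lie in the quadrants of equal sign, and more of them lie beyond the dashed line toward passage 17.

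Of the 9 symbols of the organic osmolytes 5 could be paired, and of these 4 fell with Nfat5-1-siRNA and 1 did not pass the threshold. All 5 log2 fold changes were negative. Their median was -1.74, against -0.82 over all 860 genes with a symbol. Of those 860 genes, which the study had chosen as changed, 202 rose, 418 fell and 240 did not pass. SLC6A12, the betaine carrier BGT1 (chr27:42269697-42296182), had 2140.0 and 1865 CPM in the control libraries and 787 and 410.2 CPM in the Nfat5-1-siRNA libraries. AKR1B1, the aldose reductase that makes sorbitol from glucose (chr14:2991938-3006606), had 1116 and 1186 CPM and 319.5 and 178 CPM. SLC6A6, the taurine carrier (chr20:4531730-4616854), had 3351 and 2449 CPM and 1363 and 1011 CPM. In all 3 genes the groups did not overlap, as was the case for 60.0% of the genes tested, and the lowest level was in Nfat5-1-siRNA replicate 2. The log2 fold change was -1.74 (SE 0.30, adjusted p = 0.0135) for SLC6A12, -2.21 (SE 0.23, adjusted p = 0.000532) for AKR1B1 and -1.29 (SE 0.21, adjusted p = 0.0099) for SLC6A6. ISYNA1, which makes inositol phosphate from glucose 6-phosphate as the first step of inositol synthesis (chr20:44595241-44599380), fell from 152 and 118 CPM to 24.4 and 20.5 CPM, or -2.59 on the log2 scale (SE 0.17, adjusted p = 3.76e-05). It shares exonic bases with 1 other gene and reads were counted without regard to strand, so its count may include reads of that gene.

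SLC5A3, the sodium-coupled myo-inositol carrier SMIT1 (chr31:28610332-28635233), had 19.0 and 11.9 CPM in the control libraries and 7.33 and 3.92 CPM in the Nfat5-1-siRNA libraries. The groups did not overlap, as for 60.0% of the genes tested. The log2 fold change of -1.46 (SE 0.33) did not pass the threshold (adjusted p = 0.0716), whereas it did with the passage as a block (adjusted p = 4.28e-07). The Neg-siRNA (300 mOsm) libraries had 0.315 and 0.178 CPM of SLC5A3, 2.59 and 5.27 CPM of SLC6A12, 250.1 and 209 CPM of SLC6A6, 18.0 and 22.6 CPM of AKR1B1 and 11.1 and 11.7 CPM of ISYNA1. For each of these 5 genes the Nfat5-1-siRNA libraries therefore lay between the control libraries at 300 mOsm and those at 500 mOsm. Per kilobase of exon, the mean level in Nfat5-1-siRNA (500 mOsm) was 159 CPM for SLC6A12, 182 CPM for SLC6A6, 244 CPM for AKR1B1, 7.95 CPM for ISYNA1 and 1.97 CPM for SLC5A3. The median log2 ratio of the 5 genes was -1.44 in passage 15 and -2.18 in passage 17. The adjusted p of SLC6A12 was 0.123 and 0.0861 without Neg-siRNA (500 mOsm) replicates 1 and 2 and 0.318 without Nfat5-1-siRNA replicate 2. That of SLC6A6 was 0.156 without Neg-siRNA (500 mOsm) replicate 1, 0.0527 without Nfat5-1-siRNA replicate 1 and 0.336 without Nfat5-1-siRNA replicate 2.

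TMEM184B, a multi-pass membrane protein that the study examined as a candidate in ibuprofen uptake (chr10:26423924-26474431), had 800.0 and 709.9 CPM in the control libraries and 361 and 287 CPM in the Nfat5-1-siRNA libraries. Both Nfat5-1-siRNA libraries were below both controls and above the 93.2 and 91.5 CPM at 300 mOsm. The groups at 500 mOsm did not overlap, in either direction, for 60.0% of the genes tested. It was 2.33-fold lower with Nfat5-1-siRNA, or -1.22 on the log2 scale (SE 0.17, adjusted p = 0.00287). When Nfat5-1-siRNA replicate 2 was left out, the adjusted p was 0.144.

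The ion pumps, channels and other carriers were the largest list, with 44 of its 47 symbols paired, of which 6 rose, 24 fell and 14 did not pass the threshold. Their median log2 fold change of -0.89 was near the -0.82 of all 860 genes with a symbol. Of those 860 genes, 202 rose, 418 fell and 240 did not pass. ATP1B3 and ATP1B1, which encode beta subunits of the sodium pump, fell with log2 fold changes of -1.20 and -0.63 (adjusted p = 0.00361 and 0.0494). In both genes the groups did not overlap, as for 60.0% of the genes tested. ATP1B1 shares exonic bases with 1 other gene, so its count may include reads of that gene. AQP1, the water channel of the proximal tubule and descending limb (chr14:43592297-43605779), had 29.1 and 37.3 CPM in the control libraries and 3.07 and 3.43 CPM in the Nfat5-1-siRNA libraries. Its fall of 10.2-fold (log2 fold change -3.35, SE 0.42, adjusted p = 0.00174) was not past the threshold without Nfat5-1-siRNA replicate 1 or 2 (adjusted p = 0.0672 and 0.101). CLCN4 and CLCN3, chloride-proton exchangers of endosomes, fell with log2 fold changes of -2.49 and -1.12. KCNJ15, an inwardly rectifying potassium channel, fell from 24.6 and 24.4 CPM to 10.3 and 5.72 CPM. SLC12A7, the potassium-chloride cotransporter KCC4, and STK39, the kinase SPAK that phosphorylates such cotransporters, had log2 fold changes of -0.64 and -0.89 that did not pass the threshold (adjusted p = 0.0578 and 0.0589). Among the rises were SLC19A1, a folate carrier (1.34 on the log2 scale), and SLC10A6, a carrier of sulphated steroids (2.04). Of the 30 called members, 3 remained called without Nfat5-1-siRNA replicate 2 and 12 to 14 without any other library.

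The largest falls among the genes with a symbol, at least 10 CPM and the same direction in both passages were those of KANK3, SDCBP2, RARRES2, AQP1, CENPA, CEACAM16, SPAG5, MEGF11, CCNA2, DLGAP5, ADGRF4 and EGLN3. KANK3, an ankyrin-repeat protein linked to the actin cytoskeleton (chr20:52903547-52912871), had 25.0 and 29.3 CPM in the control libraries and 1.46 and 1.34 CPM in the Nfat5-1-siRNA libraries. SDCBP2, the PDZ adaptor syntenin-2 (chr24:19686909-19695543), had 21.2 and 22.5 CPM and 1.44 and 1.21 CPM. RARRES2, which encodes the secreted chemoattractant chemerin (chr16:14671657-14673825), had 15.8 and 41.7 CPM and 1.37 and 2.15 CPM. In these 3 genes both Nfat5-1-siRNA libraries were many times below the lower control, and RARRES2 also differed between the control libraries. The corresponding log2 fold changes were -4.27 (SE 0.25, adjusted p = 1.31e-05), -4.04 (SE 0.31, adjusted p = 6.95e-05) and -4.03 (SE 0.46, adjusted p = 0.00101). At 300 mOsm KANK3 had 1.66 and 2.04 CPM and RARRES2 had 1.01 and 1.63 CPM, so the Nfat5-1-siRNA levels stood near those without raffinose. EGLN3, a prolyl hydroxylase that marks the hypoxia-inducible factor for degradation, had 455 and 415 CPM in the controls. It was at 90.8 and 49.9 CPM with Nfat5-1-siRNA, well under the 250.4 and 188 CPM of the 300 mOsm libraries. The falls of CEACAM16, a member of the carcinoembryonic antigen family, and of MEGF11, a membrane protein with EGF-like repeats, had log2 fold changes of -3.06 and -2.89. That of ADGRF4, an adhesion G protein-coupled receptor, was -2.78. In the fit that lacked Nfat5-1-siRNA replicate 2, these 3 had adjusted p-values of 0.0758, 0.13 and 0.329. MEGF11 was also at 0.0628 without Neg-siRNA (500 mOsm) replicate 2, and ADGRF4 was at 0.119 and 0.123 without Neg-siRNA (500 mOsm) replicates 1 and 2.

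By p-value, the leading falls among genes with a symbol and at least 10 CPM were those of KANK3, ISYNA1, DLGAP5, ZNF395, CENPA and ADM. ZNF395, a zinc finger protein (chr25:29205856-29222740), had 111 and 104 CPM in the control libraries and 24.4 and 23.6 CPM in the Nfat5-1-siRNA libraries. ADM, which encodes the vasodilator peptide adrenomedullin (chr21:33472110-33474520), had 527 and 591 CPM and 121 and 95.4 CPM. The replicates lay close together in both genes, and the 300 mOsm libraries, at 213 and 194 CPM of ZNF395 and 264 and 299 CPM of ADM, were above the Nfat5-1-siRNA libraries. The log2 fold change was -2.16 (SE 0.15) for ZNF395 and -2.37 (SE 0.17) for ADM, each with an adjusted p of 3.82e-05. All 6 genes stayed past the threshold whichever library was left out.

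The 12 largest rises by the same rule were those of SLCO1A2, SORBS2, FAT4, STBD1, CLDN1, CEMIP, SMAD9, HMOX1, UGT8, ID3, TUBB4A and DHRS3. SLCO1A2, an organic anion transporter that carries bile salts and many drugs (chr27:26348490-26396959), had 0.732 and 2.55 CPM in the control libraries and 33.5 and 58.4 CPM in the Nfat5-1-siRNA libraries. CLDN1, the tight junction protein claudin-1 (chr34:22302592-22319496), had 13.6 and 9.59 CPM and 97.8 and 83.5 CPM. CEMIP, which takes part in the breakdown of hyaluronan (chr3:56729184-56786497), had 119.8 and 63.6 CPM and 612 and 525 CPM. In each of the 3 genes both Nfat5-1-siRNA libraries were several times above the higher control. The log2 fold changes were 4.79 (SE 0.48, adjusted p = 0.000409), 2.97 (SE 0.39, adjusted p = 0.0026) and 2.63 (SE 0.34, adjusted p = 0.002). That of SLCO1A2 was 4.23 without Neg-siRNA (500 mOsm) replicate 1 and 6.02 without its replicate 2. At 300 mOsm the levels were 8.66 and 18.1 CPM for SLCO1A2, 205 and 131 CPM for CLDN1 and 5.31 and 1.98 CPM for CEMIP. The first was thus higher with Nfat5-1-siRNA than in either control group, the second lay between them, and the third was already higher at 500 mOsm than at 300 mOsm in the controls. Without Neg-siRNA (500 mOsm) replicate 2, CLDN1 did not pass the threshold (adjusted p = 0.0753).

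FAT4, an atypical cadherin of planar cell polarity (chr19:15155137-15332045), had 1.93 and 1.98 CPM in the control libraries and 15.3 and 27.3 CPM in the Nfat5-1-siRNA libraries, or 3.45 on the log2 scale (SE 0.30, adjusted p = 0.000139). SORBS2, an adaptor of the actin cytoskeleton (chr16:44882118-45066154), had 4.10 and 2.03 CPM and 34.5 and 32.3 CPM. STBD1, which binds glycogen, had 2.52 and 1.15 CPM and 22.3 and 15.4 CPM. Both groups were well apart in these genes. SMAD9 and ID3 belong to the bone morphogenetic protein (BMP) pathway, SMAD9 as a signal transducer and ID3 as a target gene that inhibits basic helix-loop-helix factors. SMAD9 went from 8.11 and 8.99 CPM to 37.2 and 57.1 CPM, and ID3 from 17.5 and 10.5 CPM to 55.3 and 76.2 CPM, and both were highest in Nfat5-1-siRNA replicate 2. Their log2 fold changes were 2.46 (SE 0.30, adjusted p = 0.00133) and 2.23 (SE 0.24, adjusted p = 0.000637). SMAD1, another transducer of the BMP signal, had a log2 fold change of -0.76 that did not pass the threshold (adjusted p = 0.0773). UGT8, which makes galactosylceramide, TUBB4A, a beta-tubulin, and DHRS3, which reduces retinal and shares exonic bases with 1 other gene, had log2 fold changes of 2.26, 2.22 and 2.18. When Nfat5-1-siRNA replicate 2 was left out, the adjusted p was 0.0567 for SMAD9, 0.101 for UGT8 and 0.0868 for TUBB4A, and UGT8 was at 0.0545 without Neg-siRNA (500 mOsm) replicate 2.

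HMOX1 had the smallest p-value of the rises that carry a symbol. It encodes heme oxygenase 1, which breaks heme down to biliverdin, iron and carbon monoxide (chr10:28743753-28752012). Its level was 52.8 and 53.1 CPM in the control libraries and 289.9 and 284 CPM in the Nfat5-1-siRNA libraries, and the replicates within each group nearly coincided. It was 5.41-fold higher with Nfat5-1-siRNA, with an adjusted p of 1.31e-05. The next rises by p-value among such genes were those of FTSJ3, a methyltransferase of ribosomal RNA processing, UGCG, the glucosylceramide synthase, CSF1, the macrophage colony-stimulating factor, FAT4 and SERINC5, a multi-pass membrane protein. UGCG had 97.3 and 90.1 CPM and 302 and 300.0 CPM, and CSF1 had 86.8 and 81.3 CPM and 286 and 367 CPM. Neither gene's groups overlapped, as for 60.0% of the genes tested, and the log2 fold changes were 1.68 (SE 0.14) and 1.96 (SE 0.17). These 6 rises passed the threshold whichever library was left out.

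The 21 gene lists were chosen with earlier results of these data known. Of their 430 distinct symbols 343 could be paired, which means that they are on the study's list. The others have no value here, so every count below is over members already selected as changed. In all, 73 of these genes rose, 187 fell and 83 did not pass the threshold. Among all 860 genes with a symbol, 202 rose and 418 fell with a median log2 fold change of -0.82, and a list is read against these values, since the study had chosen every one of them as changed. In 4 lists, those of ribosome production, mitochondrial metabolism, transcription factors and lipids, every member was on the study's list, so that the choice of members bears on their counts in each direction. With the passage as a block, all 860 genes passed the threshold, 300 higher and 560 lower. In the fit that lacked Nfat5-1-siRNA replicate 2, 57 of the 260 called list members remained called. The corresponding numbers were 139 and 119 without Neg-siRNA (500 mOsm) replicates 1 and 2 and 143 without Nfat5-1-siRNA replicate 1. The sign of the median held under every scaling tried for each list other than keratins and squamous epithelium, whose median was -0.05 with TMM and 0.15 with library totals alone.

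**Figure D4:**
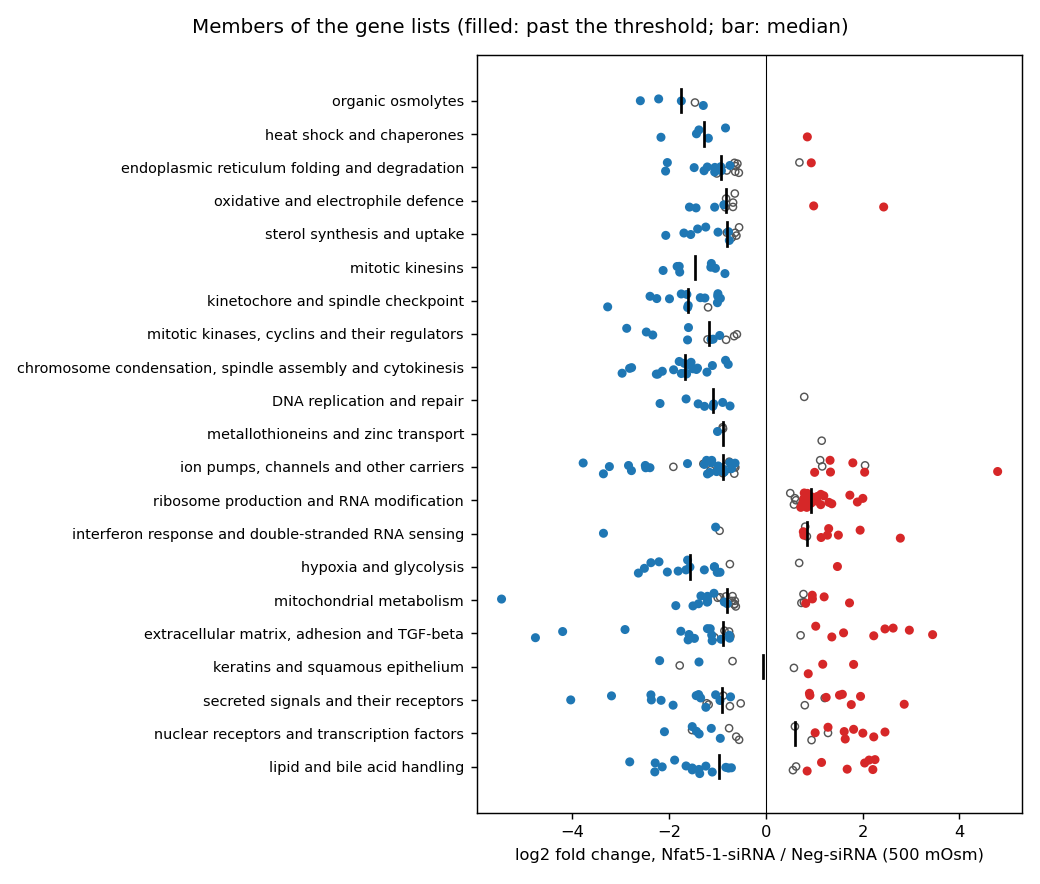
Log2 fold change of Nfat5-1-siRNA over Neg-siRNA (500 mOsm) for the members of the 21 lists, 1 row per list and 1 point per gene, filled in red (higher) or blue (lower) where past the threshold and open where not, with a black bar at the list's median. Ribosome production and RNA modification lies wholly to the right of 0, and the mitotic lists, sterol synthesis and the organic osmolytes lie wholly to the left.

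The paired genes of cell division, all of them selected by the study as changed in these libraries, were mostly lower with Nfat5-1-siRNA. Among all 860 genes with a symbol, 418 fell and 202 rose, with a median log2 fold change of -0.82. All 8 paired mitotic kinesins, of 12 listed, and all 21 paired genes of chromosome condensation, spindle assembly and cytokinesis, of 22 listed, fell, with median log2 fold changes of -1.45 and -1.66. Of the 15 paired kinetochore and spindle checkpoint genes, of 18 listed, 14 fell, and of the 12 paired mitotic kinases, cyclins and their regulators, of 17 listed, 8 fell, with medians of -1.60 and -1.16. No member of these 4 lists had a positive log2 fold change. CENPA, the histone H3 variant of the centromere (chr17:20811461-20818875), had 11.2 and 11 CPM in the control libraries and 1.05 and 1.26 CPM in the Nfat5-1-siRNA libraries. DLGAP5, which stabilizes the fibres of the kinetochore (chr8:30998323-31038850), had 93.5 and 73.8 CPM and 12.9 and 10.9 CPM. Each was several times lower in both Nfat5-1-siRNA libraries. Their log2 fold changes were -3.26 (SE 0.23) and -2.81 (SE 0.19), and the adjusted p was 3.82e-05 for CENPA and 3.76e-05 for DLGAP5. SPAG5, a spindle protein, CCNA2, which encodes cyclin A2, and CCNB2, which encodes cyclin B2, fell with log2 fold changes of -2.97, -2.87 and -2.33. CCNA2 and KIF20A share exonic bases with another gene, so their counts may include its reads. KIF20A, a kinesin of cytokinesis, had 30.7 and 23.5 CPM and 6.68 and 5.79 CPM, and BUB1, a checkpoint kinase, had 64.4 and 57.7 CPM and 14.5 and 11.2 CPM. TOP2A, the topoisomerase of chromosome segregation, went from 189 and 131 CPM to 62.2 and 41.0 CPM, or -1.63 on the log2 scale (SE 0.22, adjusted p = 0.00287).

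Between the Neg-siRNA groups, the median log2 fold change of 500 mOsm over 300 mOsm was -0.68 for the kinesins, -1.46 for the kinetochore genes and -1.53 for the condensation, spindle and cytokinesis genes, whereas it was 5.82 for the organic osmolytes. DLGAP5 had 223 and 259 CPM at 300 mOsm, TOP2A had 488 and 459.9 CPM and CENPA had 27.3 and 30.3 CPM, and for each the Nfat5-1-siRNA libraries were the lowest of these 3 groups. KIF18A was different, with 30.1 and 33.1 CPM at 300 mOsm, 62.0 and 63.9 CPM in the control libraries and 19.9 and 16.8 CPM in the Nfat5-1-siRNA libraries. The members that did not pass were TTK, a checkpoint kinase (adjusted p = 0.0551), FBXO5, an inhibitor of the anaphase-promoting complex (0.0585), VRK1, a kinase of chromatin (0.0527), CDCA8 of the chromosomal passenger complex (0.0893) and MYBL2, a transcription factor of the cell cycle (0.0835). Of 9 paired genes of DNA replication and repair, of 16 listed, 8 fell, against 418 of all 860 genes with a symbol, with medians of -1.09 and -0.82. RFC2, a subunit of the clamp loader, went from 66.5 and 65.6 CPM to 28.4 and 26.6 CPM, and DUT, which removes dUTP, from 39.2 and 31.7 CPM to 11.3 and 11.3 CPM. NTHL1, a glycosylase of base excision repair, had a log2 fold change of 0.80 that did not pass the threshold (adjusted p = 0.165). When Nfat5-1-siRNA replicate 2 was left out, 7 of the 21 condensation, spindle and cytokinesis genes, 4 of the 8 kinesins, 5 of the 14 kinetochore genes, 2 of the 8 kinases and cyclins and 1 of the 8 replication genes remained called. Leaving out any other library kept 15 to 17, 5, 8 to 9, 4 to 5 and 2 to 4 of them, in the same order of lists. The share of dividing cells was not measured.

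The list of ribosome production and RNA modification was made up wholly of genes on the study's list, and its direction is a description of the chosen members. Of these 24 members 20 rose and none fell, and all 24 had a positive log2 fold change, with a median of 0.94. The share over all genes with a symbol was 202 of 860 higher and 418 lower. FTSJ3 (chr9:11775015-11783004) had 14 and 12.5 CPM in the control libraries and 48.5 and 49.9 CPM in the Nfat5-1-siRNA libraries. QTRT2 and QTRT1, the subunits of the enzyme that puts queuine into transfer RNA, had log2 fold changes of 1.74 (SE 0.19, adjusted p = 0.000726) and 1.36 (SE 0.21, adjusted p = 0.00669). NOP58, a core protein of box C/D ribonucleoproteins, went from 50.1 and 46.3 CPM to 103 and 98.2 CPM, and POLR3A, the largest subunit of RNA polymerase III, from 54.1 and 43.2 CPM to 99.4 and 115 CPM. NOP58 and FTSJ3 had more at 300 mOsm, at 87.0 and 94.8 CPM and 23.5 and 26.0 CPM, than in Neg-siRNA (500 mOsm), whereas POLR3A had less, at 29.9 and 23.9 CPM. The members that did not pass were NOP9, ISG20L2, DDX27 and EXOSC10, with log2 fold changes from 0.51 to 0.63. Leaving out a library left between 3 (without Nfat5-1-siRNA replicate 2) and 10 (without Neg-siRNA (500 mOsm) replicate 1) of the 20 calls, and 4 and 6 without the other libraries.

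Of 23 listed genes of the interferon response and the sensing of double-stranded RNA 13 could be paired, and of these 8 rose, 2 fell and 3 did not pass the threshold, with a median of 0.85. Among all 860 genes with a symbol 202 rose and 418 fell, with a median of -0.82. The paired members are those that the study had selected as changed, and the others have no value here. ISG15, a ubiquitin-like modifier induced by interferon (chr5:56230818-56237586), had 6.24 and 11 CPM in the control libraries and 28.4 and 38.2 CPM in the Nfat5-1-siRNA libraries. ZC3HAV1, an antiviral protein that binds RNA, had 15.6 and 14.6 CPM and 38.3 and 47.1 CPM. PARP14, PARP9 and its partner DTX3L, which act in ADP-ribosylation, had log2 fold changes of 1.30, 1.27 and 1.14. The log2 fold change of ISG15 was 1.95 (SE 0.30, adjusted p = 0.00684) and that of ZC3HAV1 was 1.50 (SE 0.16, adjusted p = 0.000705). In these genes the 300 mOsm libraries were higher than the Nfat5-1-siRNA libraries, with 38.5 and 72.8 CPM of ISG15 and 55.5 and 50.0 CPM of ZC3HAV1. EIF2AK2, a kinase that senses double-stranded RNA, had a log2 fold change of 0.82 that did not pass (adjusted p = 0.0603). TNFSF10, the death ligand TRAIL, fell from 21.2 and 19.0 CPM to 9.43 and 10.2 CPM. TMEM173, which encodes STING, was low throughout, with 2.69 and 2.83 CPM in the controls and 0.408 and 0.128 CPM with Nfat5-1-siRNA. All 4 groups had received an siRNA, so the effect of transfection itself was not measured. Between 1 and 2 of the 10 calls remained when any 1 library was left out.

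Hypoxia and glycolysis genes that could be paired were mostly lower. Of these 17 members, of 20 listed, 14 fell, 1 rose and 2 did not pass, against 418 falls and 202 rises among all 860 genes with a symbol. The median of -1.56 lay below the -0.82 of those 860 genes. PLOD2, the lysyl hydroxylase of collagen telopeptides (chr23:41289828-41383170), had 1092 and 1092 CPM in the control libraries and 279.9 and 194 CPM in the Nfat5-1-siRNA libraries. PGAM1, the phosphoglycerate mutase of glycolysis (chr28:10720326-10726754), had 1977 and 2045 CPM and 628 and 521 CPM. LOX, which crosslinks collagen and elastin, had 2648 and 2180.1 CPM and 961 and 618 CPM. The groups were separate in all 3 genes, as for 60.0% of the genes tested, and replicate 2 was the lower of the Nfat5-1-siRNA libraries. Their log2 fold changes were -2.20 (SE 0.18, adjusted p = 0.000109), -1.81 (SE 0.17, adjusted p = 0.000214) and -1.61 (SE 0.27, adjusted p = 0.0123). PFKL, the liver phosphofructokinase, which shares exonic bases with 2 other genes, and SLC16A3, the lactate carrier MCT4, fell with log2 fold changes of -1.56 and -1.27. VEGFA, the vascular growth factor, had 1371 and 1400.1 CPM and 1000.4 and 659 CPM and did not pass (adjusted p = 0.137). The single rise was that of BPGM, the bisphosphoglycerate mutase, at 1.48 on the log2 scale. In the fit that lacked Nfat5-1-siRNA replicate 2, 7 of the 15 calls remained, and 9 to 13 remained without any other library.

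Of 13 paired genes of sterol synthesis and uptake, of 27 listed, 8 fell and none rose, and all 13 log2 fold changes were negative. The median of -0.80 was close to the -0.82 of all 860 genes with a symbol, of which 418 fell and 202 rose. INSIG1, which retains the sterol sensor in the endoplasmic reticulum (chr16:18260390-18272232), had 756 and 850.1 CPM in the control libraries and 206 and 179 CPM in the Nfat5-1-siRNA libraries, or -2.06 on the log2 scale (SE 0.17, adjusted p = 0.000109). FDFT1 and SQLE, which act in turn on the way to sterols, had log2 fold changes of -1.55 and -1.41. INSIG1 and SQLE were at 215 and 246 CPM and 371 and 344 CPM at 300 mOsm, above their Nfat5-1-siRNA levels. The genes that did not pass included SREBF1, a transcription factor of lipid synthesis (-0.55, adjusted p = 0.184), and ACLY, which makes cytosolic acetyl-CoA (-0.80, adjusted p = 0.0508). In the list of lipid and bile acid handling, 15 of 24 members fell and 7 rose. ACACB, the mitochondrial acetyl-CoA carboxylase, went from 7.22 and 8.54 CPM to 1.1 and 1.15 CPM, and DGAT2, which completes triglyceride synthesis, from 59.2 and 50.5 CPM to 13.6 and 8.79 CPM. PLA2G4A, the cytosolic phospholipase A2, fell from 682 and 588 CPM to 166 and 94.7 CPM, and NR1H4, the bile acid receptor FXR, from 42.8 and 42.5 CPM to 17.4 and 12.4 CPM. The risers included UGCG, UGT8, ACER2, a ceramidase (1.15), and SMPD3, a sphingomyelinase (2.21), which all act on sphingolipids, and CIDEC, a protein of lipid droplets (2.13). When Nfat5-1-siRNA replicate 2 was left out, 2 of the 8 sterol calls and 3 of the 22 lipid calls remained, against 4 to 5 and 12 to 17 without any other library.

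In the list of heat shock genes and chaperones 6 of 18 symbols could be paired, and of these 5 fell and 1 rose, with a median of -1.28. All 860 genes with a symbol held 418 falls and 202 rises. HSPH1, a cochaperone of HSP70 (chr25:8972958-9000762), had 2661 and 2299.8 CPM in the control libraries and 1253 and 654 CPM in the Nfat5-1-siRNA libraries, and CRYAB, the small heat shock protein alpha B-crystallin, had 40.6 and 39.0 CPM and 13.1 and 4.66 CPM. On the log2 scale the fold change was -1.38 (SE 0.28, adjusted p = 0.0379) for HSPH1 and -2.16 (SE 0.39, adjusted p = 0.0182) for CRYAB, and in both the fall was larger in passage 17. HSF2, a heat shock transcription factor, fell with a log2 fold change of -1.43. HSPA1L has close relatives with which it may have exchanged reads, and its log2 fold change of -1.18 is uncertain. The riser was CDC37L1, a cochaperone of HSP90 (0.86). None of these 6 calls remained without Nfat5-1-siRNA replicate 2, 3 remained without Nfat5-1-siRNA replicate 1, and 1 remained without 1 or the other control library. Of 19 paired genes of folding and degradation in the endoplasmic reticulum, of 26 listed, 10 fell, 1 rose and 8 did not pass, with a median of -0.92 that was near the -0.82 of all genes with a symbol. QSOX1 and ERO1A, oxidases that form disulphide bonds, had 958 and 1004 CPM and 1315 and 1250.4 CPM in Neg-siRNA (500 mOsm). In Nfat5-1-siRNA (500 mOsm) they had 262 and 206 CPM and 354 and 274 CPM, which is lower than the 474 and 686 CPM and 583 and 651 CPM at 300 mOsm. ERO1A shares exonic bases with 2 other genes. HSP90B1, the chaperone GRP94, had 2127 and 1557 CPM and 1115 and 714 CPM and did not pass (adjusted p = 0.091), and EIF2AK3, the stress kinase PERK, rose with a log2 fold change of 0.94. Of these 11 calls 2 remained without Nfat5-1-siRNA replicate 2 and 4 to 6 without any other library.

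In the list of oxidative and electrophile defence 11 of 20 symbols could be paired, and of these 4 fell, 2 rose and 5 did not pass the threshold. Of all 860 genes with a symbol, 418 fell and 202 rose. IDH1, the cytosolic isocitrate dehydrogenase that makes NADPH, went from 746 and 687 CPM to 269 and 213 CPM, and NQO1, a quinone reductase (chr5:79985474-79989648), from 808 and 887 CPM to 419.8 and 396 CPM. Their log2 fold changes were -1.57 (SE 0.16, adjusted p = 0.000396) and -1.05 (SE 0.15, adjusted p = 0.00455), in the direction opposite to that of HMOX1. NQO1 was close to its level at 300 mOsm, 430.1 and 402 CPM. OXR1, which protects against oxidative damage, was the other rise (0.99). CAT, the catalase, had a log2 fold change of -0.64 that did not pass (adjusted p = 0.167). Of these 6 calls 2 remained without Nfat5-1-siRNA replicate 2 and 3 to 4 without any other library. In the list of metallothioneins and zinc transport 1 of 4 paired members, of 5 listed, fell and 3 did not pass. The metallothioneins, small proteins that bind zinc and copper, resemble each other closely enough to exchange reads, and their counts are uncertain. MT1X had 1585 and 1865 CPM and 963 and 747 CPM and fell with a log2 fold change of -1.01 (adjusted p = 0.0359), a call that was lost whichever of the 4 libraries was left out. MT2A and MT1E had log2 fold changes of -0.89 and -0.88 and did not pass (adjusted p = 0.0542 and 0.0551).

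In the list of extracellular matrix, adhesion and TGF-beta genes, 15 of 28 paired members, of 29 listed, fell, 8 rose and 5 did not pass. Of all 860 genes with a symbol 418 fell and 202 rose, and the medians of -0.89 and -0.82 were close. LAMA3, a laminin chain of basement membranes, fell from 1574 and 1673 CPM to 749 and 661 CPM. ITGB3 and ITGA2, integrin subunits, had log2 fold changes of -1.47 (SE 0.15, adjusted p = 0.000467) and -1.15 (SE 0.17, adjusted p = 0.00562). THBS1, the matrix protein thrombospondin-1, had 4387 and 2987 CPM in the control libraries and 2288 and 1248 CPM in the Nfat5-1-siRNA libraries, and its log2 fold change of -1.06 did not pass (adjusted p = 0.107), but did with the passage as a block (adjusted p = 9.17e-10). COL6A1, a chain of collagen VI, fell from 8.82 and 8.69 CPM to 1.33 and 1.00 CPM. The risers included the atypical cadherins FAT4 and FAT1, the latter from 505 and 386 CPM to 1093 and 1202 CPM, as well as CLDN1, CEMIP, SMAD9 and ID3. FREM2, a protein of basement membranes, and GPC1, a cell surface proteoglycan, rose with log2 fold changes of 1.61 and 1.03. Of the 23 calls, 6 remained without Nfat5-1-siRNA replicate 2 and 12 to 15 without any other library.

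Among secreted signals and their receptors, 13 of 28 paired members, of 30 listed, fell and 8 rose, against 418 and 202 of all 860 genes with a symbol. The medians were -0.91 and -0.82. The transcription factor and keratin counts below are read against the same 860 genes. CCL24, a chemokine (chr6:7167263-7179455), had 387 and 389.9 CPM in the control libraries and 105 and 45.8 CPM in the Nfat5-1-siRNA libraries, or -2.36 on the log2 scale (SE 0.34, adjusted p = 0.004). Its log2 fold change ranged from -3.08 to -1.88 when 1 library was left out, and its call did not hold in every such fit. F3, the tissue factor that starts coagulation, went from 572 and 1069 CPM to 190.3 and 177 CPM, and F2R, a thrombin receptor, from 169.5 and 132 CPM to 50.1 and 29.9 CPM. THBD, the anticoagulant thrombomodulin, went the other way, from 21.5 and 24.2 CPM to 49.0 and 88.0 CPM, or 1.58 on the log2 scale (SE 0.25, adjusted p = 0.00845). CSF1, SEMA3E, a semaphorin (1.77), WNT7B (1.25) and IL22RA1, a receptor subunit for interleukin-22 (1.52), were also higher. Of 21 nuclear receptors and transcription factors 8 rose and 6 fell. GATA2 had 38.6 and 32.1 CPM and 122 and 98.9 CPM, TFCP2L1, a factor of the collecting duct, had 11.1 and 11.5 CPM and 34.9 and 34.5 CPM, and ELF3, an epithelial ETS factor, had 84.8 and 66.5 CPM and 252 and 280.1 CPM. All 3 were higher in both Nfat5-1-siRNA libraries, with log2 fold changes of 1.64, 1.62 and 1.82. TEAD2, a partner of YAP, and RCAN1, an inhibitor of calcineurin, fell with log2 fold changes of -1.37 and -1.12. Of 8 paired genes of keratins and squamous epithelium, of 9 listed, 3 rose and 2 fell. KRT80, a keratin, and SFN, the 14-3-3 sigma protein, rose with log2 fold changes of 0.88 and 1.18, and LY6D, a surface protein, fell from 243 and 209.6 CPM to 55.6 and 43.6 CPM. In the fit that lacked Nfat5-1-siRNA replicate 2, 5 of the 21, 4 of the 14 and 1 of the 5 calls of these lists remained, against 9 to 12, 9 to 10 and 3 to 4 without any other library.

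In mitochondrial metabolism 12 of 29 nuclear genes fell, 5 rose and 12 did not pass, against 418 falls and 202 rises among all 860 genes with a symbol. The median of -0.79 was close to the -0.82 of those 860 genes. IDH2, the mitochondrial isocitrate dehydrogenase (chr3:53070718-53082680), had 313 and 341 CPM in the control libraries and 97.6 and 83.1 CPM in the Nfat5-1-siRNA libraries, and SIRT5, a desuccinylase, had 508 and 519 CPM and 207 and 155 CPM. On the log2 scale the fold changes were -1.86 (SE 0.15, adjusted p = 0.000114) and -1.50 (SE 0.16, adjusted p = 0.000586). MRPS6, a protein of the mitochondrial ribosome, fell from 291 and 294 CPM to 124 and 107 CPM. ALAS1, the first enzyme of heme synthesis, rose from 75.6 and 52.3 CPM to 203 and 221 CPM with a log2 fold change of 1.73. COX10, which takes part in the synthesis of heme A, rose by 0.96 on the same scale. The 37 genes of the mitochondrial genome, which were not chosen by the study's list, gave a separate view. None passed the threshold with edgeR and the Benjamini-Yekutieli adjustment, and 16 had an unadjusted p under 0.05. Without the filter on low counts 5 were lower, with the Benjamini-Hochberg adjustment 6 and with DESeq2 2, and none was higher. In the fit as reported, all 37 log2 fold changes were negative and their median was -0.47, or -0.28 with library totals alone. With the passage as a block 10 were lower, and without Neg-siRNA (500 mOsm) replicate 2 the median was -0.22. The median log2 ratio was -0.22 in passage 15 and -0.64 in passage 17. The share of counts from the mitochondrial genome was 4.39% and 5.87% in the control libraries and 4.34% and 4.44% in the Nfat5-1-siRNA libraries, so replicate 2 of the control stood above the other 3 libraries. Its part in the other falls of passage 17 was not tested. Of the 17 nuclear calls, 2 remained without Nfat5-1-siRNA replicate 2 and 4 to 9 without any other library.

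Genes known only by an identifier held some of the largest changes. The 2 largest falls with at least 10 CPM were those of ENSCAFG00000000200 (chr10:1363127-1364509), from 15.7 and 22.7 CPM to 0.795 and 0.426 CPM, and ENSCAFG00000033145 (chr10:49045887-49067516), from 29.2 and 53.1 CPM to 1.78 and 2.57 CPM. The 2 largest rises were those of ENSCAFG00000002142 (chr10:40655065-40677956), from 1.71 and 1.88 CPM to 31.7 and 46.1 CPM, and ENSCAFG00000033956 (chr17:5956896-5958887), from 3.09 and 2.08 CPM to 48.5 and 48.8 CPM. Their log2 fold changes were -4.97, -4.24, 4.44 and 4.24, with a highest adjusted p of 0.00118. All 4 passed the threshold whichever library was left out.

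The Nfat5-2-siRNA libraries were set against the Nfat5-1-siRNA libraries directly, to see where the constructs differ. With edgeR 8 genes differed, 6 higher and 2 lower with Nfat5-2-siRNA, which is 0.0403% of the genes tested, and 2957 had an unadjusted p under 0.05. With the passage as a block 979 genes differed (4.94%). Without 1 of the 4 libraries of these groups, 0 to 3 genes were higher and none was lower. Each construct's own comparison uses the same Neg-siRNA (500 mOsm) libraries. Of the 8 genes, ITGB6 and SYTL2 carry a symbol. ITGB6, the integrin beta 6 subunit (chr36:5835308-5909634), had 29.6 and 33.6 CPM in the control libraries, 52.4 and 51.8 CPM with Nfat5-1-siRNA and 21.3 and 17.5 CPM with Nfat5-2-siRNA, and thus lay above the controls with the first construct and below them with the second. SYTL2, a synaptotagmin-like protein of vesicle traffic (chr21:13688338-13759221), had 41.4 and 42.1 CPM, 63.4 and 61.6 CPM and 133 and 142 CPM. The difference, Nfat5-2-siRNA minus Nfat5-1-siRNA, was -1.43 (SE 0.16, adjusted p = 0.0192) for ITGB6 and 1.14 (SE 0.13, adjusted p = 0.0333) for SYTL2 on the log2 scale. Both calls were lost without any 1 of the 4 libraries of these groups, with filterByExpr and with only the 4 libraries, while the direction held. Both held with the passage as a block, also with only the 4 libraries (edgeR, adjusted p = 0.00725 for both), and with DESeq2. Neither gene passed the threshold between Nfat5-1-siRNA and Neg-siRNA (adjusted p = 0.0523 and 0.0821).

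The other genes with a symbol, at least 10 CPM and the smallest p-values between the constructs did not pass the threshold, but did with the passage as a block. HMOX1 had 289.9 and 284 CPM with Nfat5-1-siRNA and 169 and 159 CPM with Nfat5-2-siRNA, a log2 difference of -0.81 (adjusted p = 0.155, or 7.42e-06 with the block). DHRS3 had 11.3 and 10.0 CPM with Nfat5-1-siRNA and 4.95 and 3.93 CPM with Nfat5-2-siRNA, and LSS, the lanosterol synthase, had 291 and 246 CPM and 148 and 164 CPM. NUCB2, the precursor of nesfatin, differed by -0.67 on the log2 scale. AKAP12, a scaffold of protein kinase A, had 78.2 and 55.1 CPM with Nfat5-1-siRNA and 284 and 206 CPM with Nfat5-2-siRNA (log2 difference 1.88, adjusted p = 0.0517). TTLL4, which adds glutamate to tubulin, SFN and MYC, a growth-related transcription factor, had log2 differences of 1.65, 1.01 and 1.27, with adjusted p-values of 0.0517, 0.0623 and 0.0542. For MYC the levels were 26.2 and 34.6 CPM in the control libraries, 103 and 141 CPM with Nfat5-1-siRNA and 306 and 283 CPM with Nfat5-2-siRNA. For the osmolyte genes the difference between the constructs was -0.18 (SE 0.29) for SLC6A12, -0.18 (SE 0.21) for SLC6A6, 0.11 (SE 0.22) for AKR1B1 and -0.51 (SE 0.33) for SLC5A3, none of it past the threshold. TMEM184B differed by 0.03 (SE 0.16). A p that misses the threshold does not show that the constructs act alike.

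**Figure D5:**
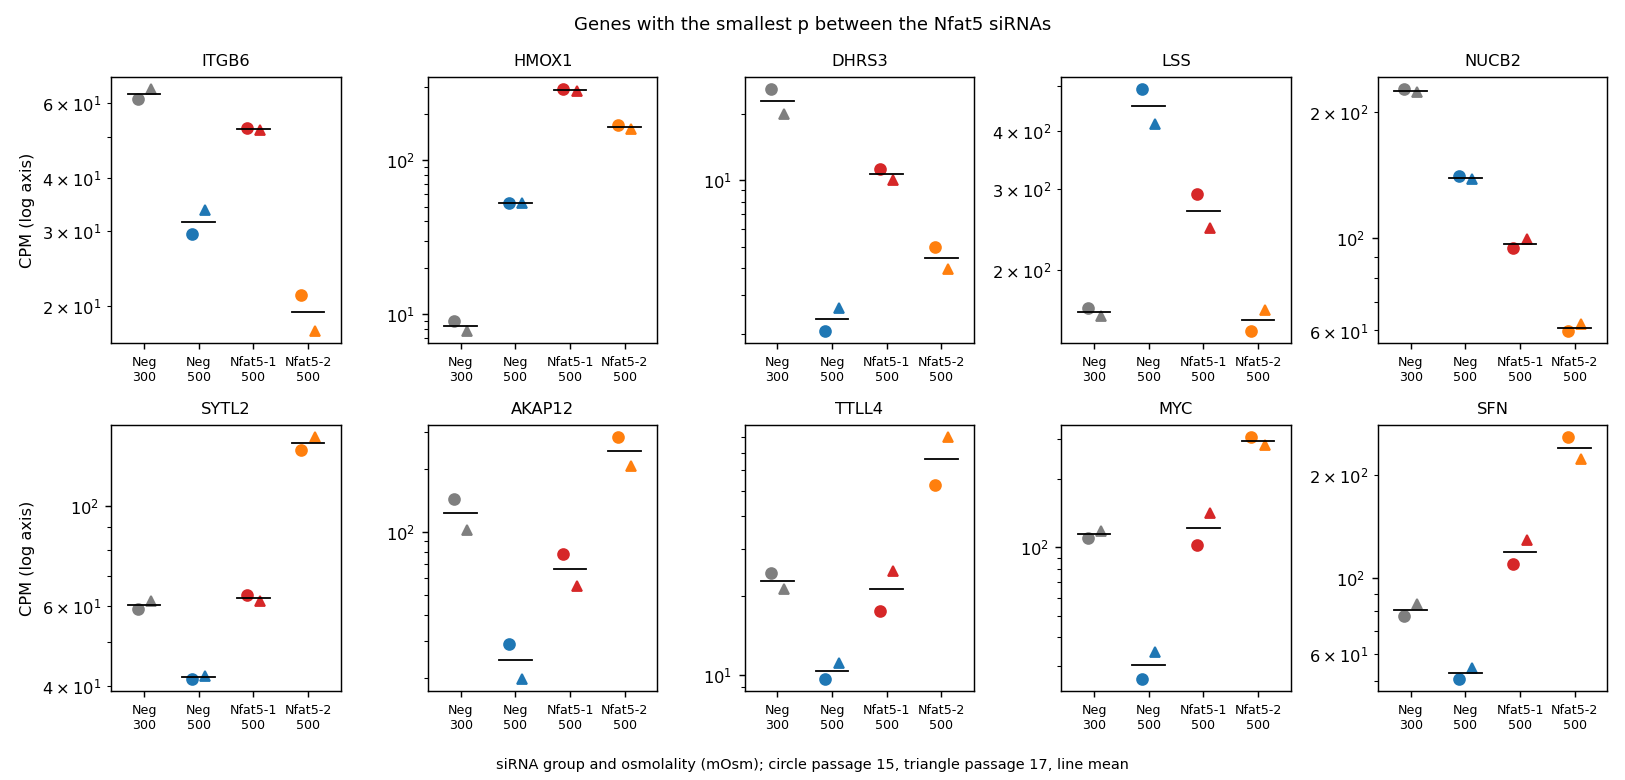
CPM (log axis) in the 8 libraries of the 10 genes with a symbol, at least 10 CPM and the smallest p between Nfat5-2-siRNA and Nfat5-1-siRNA, 5 in each direction, with a circle for passage 15, a triangle for passage 17 and a line at the group mean. ITGB6 is at 52.4 and 51.8 CPM with Nfat5-1-siRNA and 21.3 and 17.5 CPM with Nfat5-2-siRNA, and SYTL2 is at 63.4 and 61.6 CPM and 133 and 142 CPM.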

How the data were processed

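Gene counts were deposited by the authors as 1 table of whole-number counts for 32704 genes in 8 libraries, 2 per group. Per the file headers and the submitters' processing notes, the authors aligned paired reads to CanFam3.1 with HISAT2 2.0.5 and counted them over Ensembl exons with featureCounts 1.5.1, without strand and without the option that counts a pair once, so both mates of a fragment can add to a count. Counts are thus not independent molecules. The table holds no comparison columns, and its number of other unused columns of values was 0.

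Genes that reached 5 reads over all libraries were fitted in R 4.3.3 with edgeR 4.0.16 (TMM factors, quasi-likelihood test, two-sided, 4 groups, all 8 libraries, no block), with the Benjamini-Yekutieli adjustment and a threshold of 0.05. The SE was the log2 fold change divided by the square root of the F statistic. The scripts were tested on simulated data. Python 3.11.15 was used for summaries and figures.

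The replicate numbers pair the libraries, since the labels give the same cell passage to each number. Their deviations from the group mean had an r of 0.29 between the groups compared and of 0.12 to 0.46 over the 6 pairs of groups. The fit with this replicate block was an alternative, as were DESeq2 1.42.0, its size factors, filterByExpr, no filter, the Benjamini-Hochberg adjustment, the 4 libraries alone and each library left out. Scaling by library totals was added after seeing the data.

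Genes were named by rule. These were the Nfat5 gene, the osmolyte genes of the study and TMEM184B, the 12 largest changes each way among called genes with a symbol, at least 10 CPM in the higher group and 1 direction in both passages, the 6 smallest p-values each way, members of the 21 lists, the 5 smallest p-values each way between the constructs, and 2 genes each way with an identifier only. The members and lists were chosen with earlier results of these data known. Of 430 distinct symbols in the lists, 343 could be paired. Some named members of the lists are not reported here.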

Additional observations from a re-analysis of the deposited data

Results flagged for a closer look

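ITGB6 and SYTL2 were marked because the effect of the Nfat5-siRNAs differed between the constructs by a direct test of the difference. For ITGB6, the log2 difference of Nfat5-2-siRNA minus Nfat5-1-siRNA was -1.43 (edgeR, adjusted p = 0.0192), with both Nfat5-2-siRNA libraries below both Nfat5-1-siRNA libraries. For SYTL2, it was 1.14 (adjusted p = 0.0333), with both Nfat5-2-siRNA libraries above. Neither call held without any 1 of these 4 libraries, where the differences were -1.57 to -1.29 for ITGB6 (adjusted p = 0.0957 to 0.383) and 1.09 to 1.18 for SYTL2 (adjusted p = 0.128 to 0.841). Nor did they hold with filterByExpr (adjusted p = 0.0918 for both) or with only the 4 libraries and no block (adjusted p = 1 for both). With the replicate block in edgeR both calls held, at adjusted p-values of 4.91e-13 for ITGB6 and 1.48e-10 for SYTL2. They also held with the block and only the 4 libraries (adjusted p = 0.00725 for both) and with DESeq2 (adjusted p = 3.17e-11 for both). With 2 libraries per group, no library could be examined as an outlier of its group.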

How the results depend on the processing

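With Nfat5-1-siRNA, 674 genes were higher and 898 lower. The numbers were 1232 and 1634 without a filter on low counts, 1268 and 1414 with DESeq2, 1807 and 2226 with the Benjamini-Hochberg adjustment, and 1313 and 578 with library totals and no TMM factors. With only the 4 libraries compared and no block they were 840 and 826. With the replicate block they were 1906 and 2358, and with the block and only the 4 libraries 2416 and 2275. Leaving out 1 library gave 69 to 312 higher and 97 to 382 lower genes.

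For the constructs set against each other, 6 genes were higher and 2 lower with Nfat5-2-siRNA. The numbers were 28 and 6 with DESeq2 size factors, 227 and 110 without a filter, 133 and 80 with DESeq2, 113 and 73 with Benjamini-Hochberg, 474 and 505 with the replicate block, and 101 and 38 with the block and only the 4 libraries. They were 0 and 0 with filterByExpr and with only the 4 libraries. Leaving out 1 library gave 0 to 3 higher and 0 to 0 lower genes. The cause of these shifts was not tested.

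In the gene lists, leaving out 1 library gave 14 to 37 higher and 43 to 107 lower calls, against 73 and 187. No direction reversed among the 362 other named genes. With the replicate block, 86 more of them passed and none was lost, and without Nfat5-1-siRNA replicate 2, 208 were lost. Totals of 41742578 to 46043788 counts leave genes under 1 CPM with few reads, and with 2 libraries per group the spread is estimated from few samples.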
